A study of Mus musculus with 21 samples.

Results

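The genes described here encode the proteins of the cytosolic ribosome in the mouse. They were chosen by name alone, as every gene listed in all 4 expression tables of the study whose symbol is Rpl or Rps followed by a number (with a final a, l or x allowed), together with Rplp0, Rplp1, Rplp2 and Rpsa. This gave 78 genes of the 12339 listed in all 4 tables, 46 of the large and 32 of the small subunit. Of the 78, 77 are protein-coding in the annotation. The other, Rps4l, on mouse chromosome 6 (GRCm38, 148354656 to 148355598), is annotated as a transcribed processed pseudogene and is a near-copy of Rps4x, so reads of the pair may have been split between them. The symbols Rpl39l, Rpl3l and Rpl6l match the name rule in only some of the tables, and these 3 genes are not counted as members.

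The data are messenger RNA sequencing of mammary tumours and of freshly sorted haematopoietic stem cells (HSC) from mice that were kept sedentary or were physically active. All mice carried the MMTV-PyMT transgene, in which a mammary tumour virus promoter drives the polyoma middle T oncogene in the mammary epithelium, so tumour-bearing animals are also the source of every HSC library. The tumour groups were sedentary at week 12, active at week 12, sedentary at week 18 and active at week 18, and the HSC groups were sedentary at week 12, active at week 12, and sedentary mice that had received cells from active mice, sampled at week 14. Each of the 7 groups had 3 biological replicates, 21 libraries in all. In the transplant group the week and the transplantation changed together and cannot be told apart, and which host cells remained is not given in the sources used here.

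Each cytosolic ribosome carries a single copy of nearly every one of these proteins, the P-stalk proteins Rplp1 and Rplp2 being the known exception, and cells make them in step with ribosomal RNA. Their messenger RNAs are among the most abundant of a growing cell. Most begin with a C followed by a run of pyrimidines (C or T), the TOP tract, through which the kinase mTOR and the protein Larp1 set how strongly they are translated. In HSC, protein synthesis is known to be held low, and loss of single members such as Rps19 is known to impair blood formation.

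A promoter sequence from RefSeq (GRCm38.p6) could be matched to 57 of the 78 members. A run of at least 8 pyrimidines on the coding strand that touched the window from 4 bases before to 5 bases after the annotated start was found in 22 of the 57 (38.6%), against 10.3% of 27025 genes. In the 300-base window of 250 bases before and 50 after the start, on both strands, CCGGAAG (a core of the ETS factor site) was present in 24 members (42.1%, against 9.93% of all genes), GGGCGG in 35 (61.4% against 38.2%), AAGATGG in 9 (15.8% against 7.28%) and TATAAA in 6 (10.5% against 15.7%). These matches describe letters only. The sequences below run from 70 bases before to 20 bases after the start, 5′ to 3′ on the gene's strand, with the pyrimidine run in capitals where it was found. Rps9 is shown because its share of the members' reads varied least between tumours, Rpl38, Rps28, Rpsa and Rps2 because they differed most between tumours and HSC, Rpl13a because it stood out between the HSC replicates, and Rps6 because its protein is the classical target of the kinase S6K downstream of mTOR.
Rps9, chr7:3703971-3704060, plus strand: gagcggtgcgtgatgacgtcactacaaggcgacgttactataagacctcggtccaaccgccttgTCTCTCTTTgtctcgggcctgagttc
Rps6, chr4:86857348-86857437, minus strand: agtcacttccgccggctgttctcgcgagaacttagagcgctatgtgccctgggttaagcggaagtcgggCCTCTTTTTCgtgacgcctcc
Rpl38, chr11:114668510-114668599, plus strand: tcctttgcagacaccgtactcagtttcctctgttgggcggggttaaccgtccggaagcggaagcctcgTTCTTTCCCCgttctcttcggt
Rpl13a, chr7:45128726-45128815, minus strand: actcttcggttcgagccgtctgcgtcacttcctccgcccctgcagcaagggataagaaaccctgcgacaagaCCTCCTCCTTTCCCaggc
Rps28, chr17:33824543-33824632, minus strand: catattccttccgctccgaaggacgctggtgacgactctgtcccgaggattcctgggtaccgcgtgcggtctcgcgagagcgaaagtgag
Rpsa, chr9:120127696-120127785, plus strand: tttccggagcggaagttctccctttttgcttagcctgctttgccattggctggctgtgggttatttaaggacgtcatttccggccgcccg
Rps2, chr17:24719993-24720082, plus strand: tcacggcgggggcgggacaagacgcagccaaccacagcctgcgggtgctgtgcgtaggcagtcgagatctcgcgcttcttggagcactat
Rps9, Rps6, Rpl38 and Rpl13a hold such a run at the annotated start, while Rps28, Rpsa and Rps2 hold none of 8 or more there.

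The libraries held between 20838963 and 28973775 assigned reads in the tumours and between 16406889 and 24574563 in HSC replicates 1 and 2, whereas replicate 3 of the sedentary, active and transplant HSC groups held 58500940, 71473823 and 72417315. In the bracketed tags of the sample titles these 3 deep libraries carry a letter, where the other HSC libraries carry a number only. Replicate 2 of the active HSC group, numbered 6, appears in both HSC tables with different reads at 13105 of 13399 shared genes, all 78 members included. The other 2 active libraries differed at 4 genes and at no member. The column numbered 6 is headed P3 (6) beside sedentary HSC and P2 (6) beside transplant HSC. Whether these are 2 different libraries, and which of them is replicate 2, is not known. Summed neutrophil markers in the 2 columns numbered 6 were 13900 CPM (reads of a gene relative to a fixed library total) in the table with sedentary HSC and 2660 in the table with transplant HSC. Mammary epithelial markers summed to 15.8 to 45.8 CPM in HSC and to between 3160 and 15200 in tumours. HSC markers (9 of the 10 listed were in the tables) summed to 291 to 389 in HSC and to 400 to 927 in tumours, with Hlf, Fgd5 and Kit higher in tumours and Slamf1, Mecom, Procr and Meis1 higher in HSC, so that sum did not set the HSC apart. In bulk tissue, fewer cells of a type and less RNA per cell cannot be told apart.

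Between 2.83% and 5.92% of all assigned reads came from the 78 members, and the shares of the 2 groups overlapped in each contrast of activity at the same week, of transplantation and of tissue in sedentary mice. The tumour libraries list 19241 genes, 15 of them mitochondrial (mt-), and the HSC libraries 13513 or 13636 with no mt- gene. Shares and CPM of the 2 tissues thus have unlike denominators. Over genes listed in all 4 tables, sedentary week 12 means were 4.47% in tumours and 5.04% in HSC. Active tumours did not overlap between weeks 12 and 18, a difference that was not tested. At week 12 the share was 2.83%, 4.93% and 3.86% in sedentary tumours (mean 3.87 ± 1.05, SD, n = 3) and 3.88%, 4.10% and 4.12% in active tumours (4.03 ± 0.132). At week 18 it was 5.92%, 4.09% and 4.07% in sedentary tumours (4.69 ± 1.06) and 4.76%, 5.04% and 5.03% in active tumours (4.94 ± 0.157). The active tumours lay inside the range of the sedentary ones at both times, and at both times 1 sedentary library, replicate 1, lay at an end of the range. The ratio of the mean shares, active over sedentary, was 1.04 at week 12 and 1.05 at week 18, and it lay between 0.918 and 1.21 and between 0.988 and 1.21 when each library in turn was left out.

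In HSC the share was 5.75%, 5.08% and 3.78% in sedentary mice (4.87 ± 1.00), and 5.19%, 4.36% and 3.29% in active mice (4.28 ± 0.951). It was 5.42%, 5.14% and 4.05% in transplant HSC (4.87 ± 0.721). The lowest of the 3 values was the deep replicate 3 in each of the 3 groups. The ratio of the means was 0.879 for active over sedentary HSC, 0.882 within replicates 1 and 2 and 0.870 within replicate 3. For transplant over active HSC, within their own table, it was 1.10 (1.05 within replicates 1 and 2, 1.23 within replicate 3), and for transplant over sedentary HSC 0.999 (0.974 and 1.07). In the second column named 6, active replicate 2 had a share of 4.85%. Large-subunit genes took 1.51 to 1.68 times the reads of small-subunit genes in every library, so both subunits moved together across the series.

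**Figure D1:**
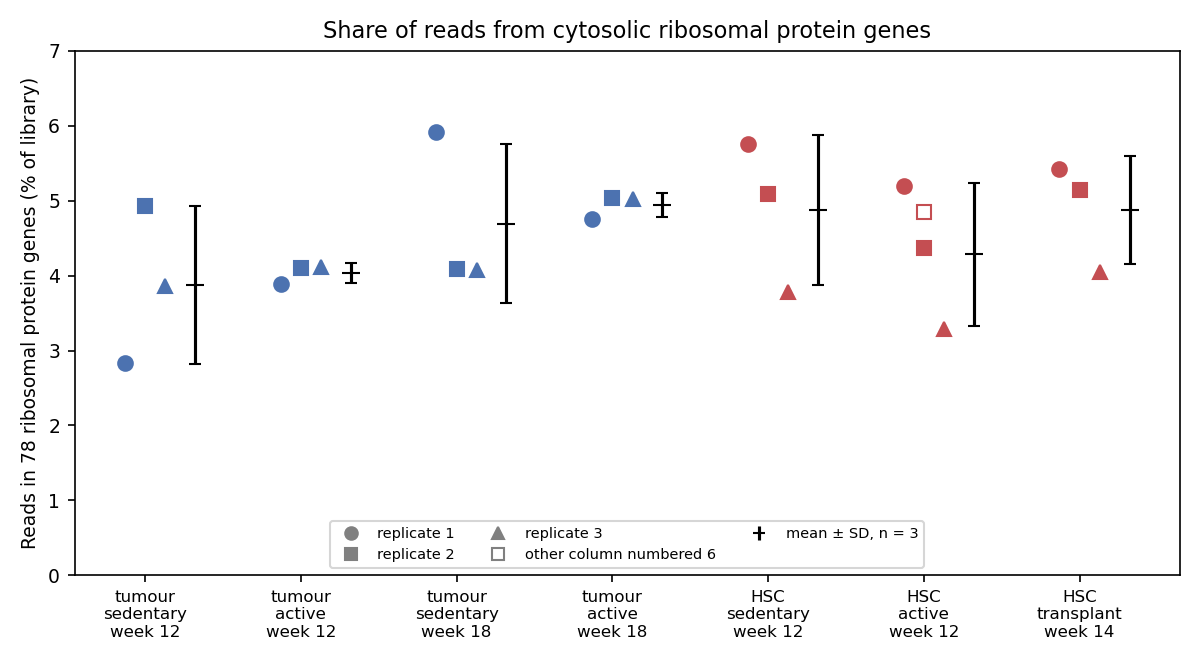
Share of each library's reads that fell in the 78 ribosomal protein genes (percent, vertical axis) in the 7 groups; symbols are replicates, the open square is the other column numbered 6, and the bar is the mean ± SD (n = 3). The groups overlap in every contrast of activity or transplantation, and the triangles, replicate 3, are the lowest of their group in all 3 HSC groups.

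Few members took much of the reads. The member with the most reads was Rpl13a in 10 and Rplp0 in 2 of the 12 tumours, and Rps2 in 8 and Rplp0 in 1 of the 9 HSC libraries. The 5 leading members of each library held 15.9% to 18.0% of the members' reads in tumours and up to 25.5% in HSC. Per kilobase of coding sequence, a scale on which genes can be compared, Rpl41 (the smallest member, with a coding length of 75 bases) had the highest level in sedentary week 12 tumours, 5004 ± 1258 CPM per kilobase, followed by Rpl13a at 2577 ± 678. In sedentary HSC the highest levels per kilobase were those of Rpl13a (3070 ± 824), Rps2 (2860 ± 438) and Rpl41 (2813 ± 1295), which do not differ beyond their spread. Rps27l, a paralogue of Rps27 known to be induced by the p53 tumour suppressor, was the lowest coding member on that scale in both tissues, at 408 ± 27.1 in tumours and 244.8 ± 86.7 in HSC. Next above it in HSC stood Rpl38 (325 ± 125) and Rps28 (376 ± 136).

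The members' proportions to each other varied little in both tissues. The SD of a member's log2 share of the members' reads had a median of 0.0911 over the 12 tumours and 0.143 over the 9 HSC libraries. Rps9 was the steadiest in tumours, at 1.57% to 1.72% of the members' reads (SD 0.0414), and Rpl8 was the steadiest in HSC, at 2.40% to 2.58% (SD 0.0338). Rpl38, whose loss in the mouse is known to alter the skeleton through the translation of Hox messages, varied over 0.232% to 0.617% in tumours (SD 0.358), the widest range after the pseudogene Rps4l (SD 1.16). In HSC, after Rps4l (SD 0.482 over the 8 of 9 libraries with reads), Rpl41 (0.253% to 0.545%, SD 0.411) and Rpl35a (SD 0.358) varied most. Rps4l itself had 0.888 to 12.9 CPM in tumours, the highest in active week 12 replicate 3. In HSC it had 1.89 to 4.60 where it had reads, and it was listed at 0 in 1 of the 2 columns numbered 6 while the other held 139 reads.

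**Figure D2:**
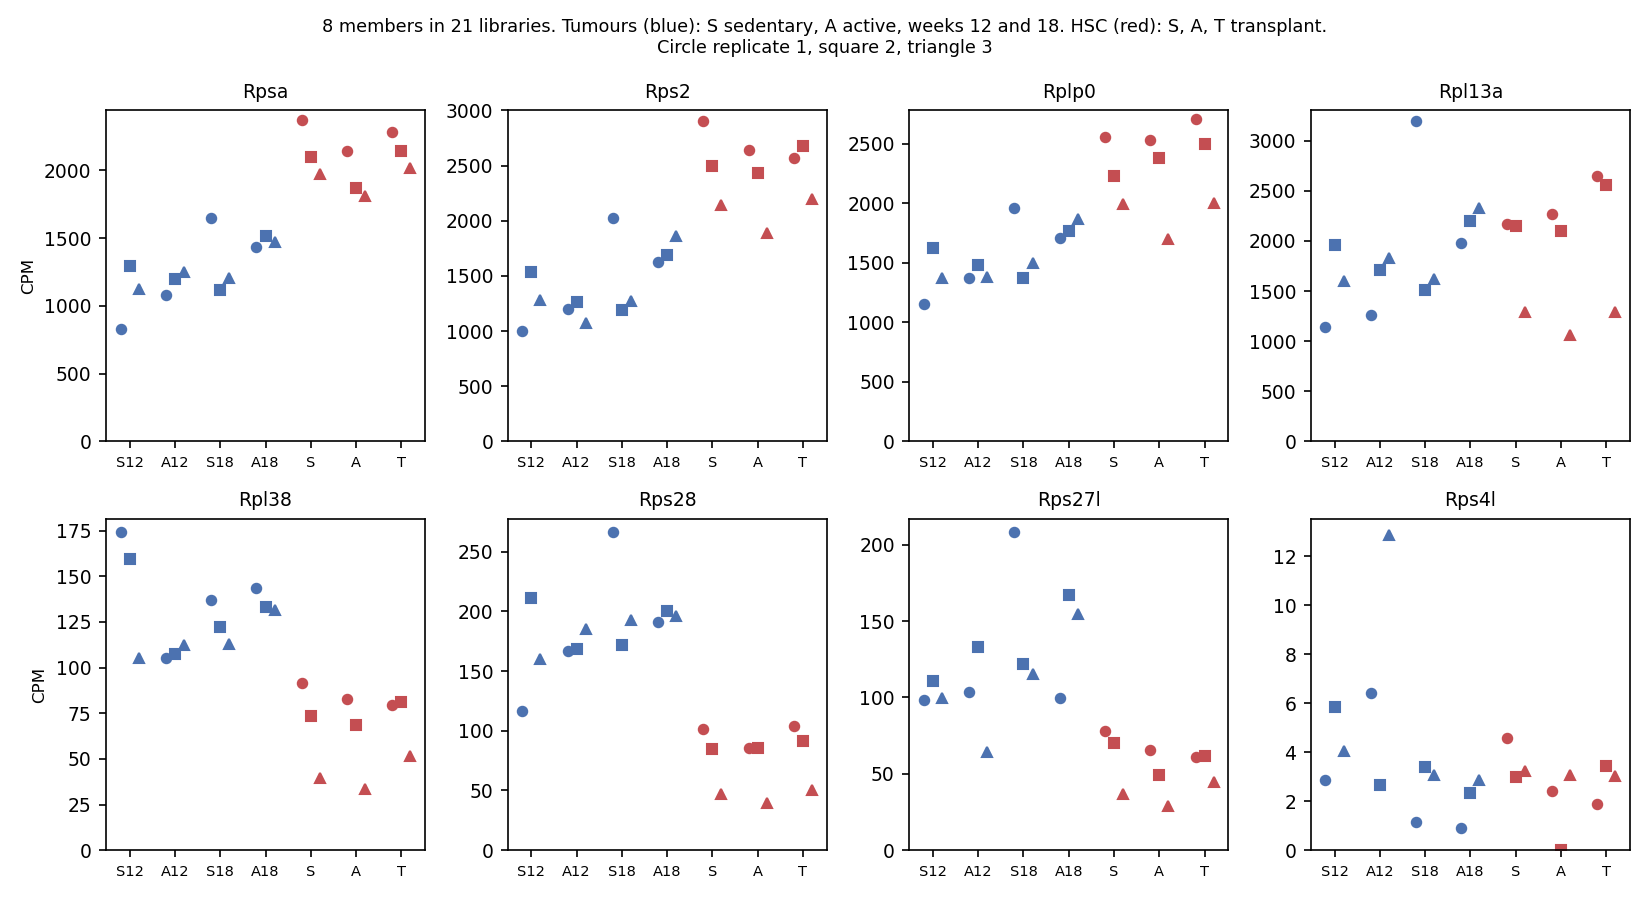
CPM (vertical axis, from 0 in each panel) of 8 members in the 21 libraries; blue symbols are tumours, red symbols HSC, and circles, squares and triangles are replicates 1, 2 and 3. Rpsa lies higher and Rpl38 and Rps28 lie lower in every HSC library than in every tumour, Rps2 lies higher in most HSC libraries but overlaps sedentary week 18 replicate 1, and the HSC triangles lie below the other HSC libraries for Rpl13a, Rpl38 and Rps28.

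Physical activity was compared in tumours at week 12 first. No member passed the test (limma on log2 of the normalised read count + 1, adjusted over all 19162 genes with Benjamini-Hochberg, threshold 0.05), where 0.517% of all genes did, and none had an unadjusted p under 0.05, where 4.09% did. The members' log2 fold changes had a median of 0.12, with 69 of 78 above 0, against 0.01 and 51.7% over all genes, and the smallest adjusted p was 0.970. The normalised read count of Rpl38, the coding member with the most negative value, was 2469, 2657 and 2787 in active and 4361, 3734 and 2539 in sedentary tumours, a log2 difference of -0.39 ± 0.24 (SE, adjusted p = 0.970, limma). Rps27, which takes part in small-subunit assembly, had 4612, 4432 and 6596 against 2642, 4761 and 4643 (log2 difference 0.40 ± 0.31). The groups overlapped for both genes, as they did for every one of the 78 members, while 9.13% of all genes had groups that did not overlap. For 76 of 78 members the 95% interval of the log2 difference lay within 1 of 0, so a doubling was outside it.

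Members known for roles beyond the ribosome did not pass at week 12 either. Rpl5, which with Rpl11 binds and restrains the ubiquitin ligase Mdm2, had 16590, 16060 and 16680 in active and 10880, 17790 and 14650 in sedentary tumours, a log2 difference of 0.22 ± 0.22. Rpl11 differed by 0.09, Rpsa by 0.15, Rps6 by 0.12, Rps19 by 0.06, Rpl22 by 0.06, Rpl10 by 0.05, Rps4x by 0.23 and the P-stalk genes Rplp0, Rplp1 and Rplp2 by 0.05, 0.05 and 0.15, each with an adjusted p no smaller than that of Rpl38. Sedentary replicate 1 was the lowest of the 6 libraries for 71 of the 78 members, against 19.3% of all genes. Without that library the median was -0.08. Summed skeletal muscle markers were 4890, 2460 and 3590 CPM in sedentary and 64.7, 16.3 and 49.7 in active tumours, and 10 of 12 of them were lower in active tumours. Active replicate 3 stood apart in T cell markers (506 CPM, against 13.1 to 19.9 in the other 5 libraries), B cell markers (922 against 3.21 to 11.8), adipocyte markers (12300 against 530 to 3100) and epithelial markers (3880 against 9140 to 14400). Their part in the members' values was not tested.

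Rpl3l, the muscle paralogue of Rpl3 that replaces it in muscle ribosomes and is not a member, was lower in active week 12 tumours. Its normalised read count was 340.7, 151.8 and 282.6 in sedentary and 5.47, 2.06 and 0.00 in active tumours, a log2 difference of -6.50 ± 0.75 (adjusted p = 0.0439, limma). The groups did not overlap, and the gene moved with the muscle markers given above. Rpl3 itself had 27060, 31200 and 29430 in active and 21990, 33140 and 28000 in sedentary tumours, with a log2 difference of 0.09 ± 0.20. At week 18 Rpl3l did not pass and its groups overlapped. It had 4.161, 96.17 and 34.76 in active and 1.915, 73.87 and 19.83 in sedentary tumours (0.66 ± 1.575, adjusted p = 0.931, limma).

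At week 18 no member passed the test between active and sedentary tumours, and neither did any other gene (0.0% of 18939 genes by limma), so the missing calls do not show that the members were alike. DESeq2 and edgeR likewise called no member, and none had an unadjusted p under 0.05 by limma, where 5.97% of all genes did. The median log2 fold change was 0.18, with 77 of 78 members above 0, against 0.01 over all genes. Rpl27a, a large-subunit protein, had the smallest p, with 11850, 13120 and 13760 in active and 11750, 10210 and 9991 in sedentary tumours (log2 difference 0.28 ± 0.16, adjusted p = 0.824, limma). Rps12 had 12780, 15630 and 18510 against 12390, 12360 and 12270 (0.33 ± 0.19), and Rps6 had 25440, 24460 and 25120 against 24210, 20050 and 19190 (0.25 ± 0.16). In these 3 genes every active library exceeded every sedentary one, by a small margin over sedentary replicate 1. This held for 6 of the 78 members, with 6.03% of all genes separating in that direction.

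Sedentary replicate 1 was the highest of the 6 week 18 libraries for 44 of 78 members, against 21.8% of all genes. Its summed epithelial markers were 3160 CPM, against 10700 to 15200 in the other 5, and their part in the members' values was not tested. Without it the median was 0.32, with 77 of 78 members above 0 and no call. Rps2 differed by 0.32, Rplp0 by 0.24, Rpsa by 0.25, Rpl5 by 0.19, Rpl11 by 0.18, Rps19 by 0.23, Rpl10 by 0.09 and Rps28 by 0.00 on the log2 scale. Scaling by the members' own reads put their median at 0.01 and that of all genes at -0.16. A change of scale moves all genes of a library alike, so the gap of 0.17 between the members and all genes had to stay. The test of whether the effect of activity itself changed from week 12 to week 18 called no member (0.0104% of all genes were called), with a median of 0.06. Among coding members, Rpl38 had the largest such change, 0.61 ± 0.27 (adjusted p = 0.770, limma), after a log2 difference of -0.39 at week 12 and active values of 3695, 3215 and 3399 against 3181, 2891 and 2796 at week 18.

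In HSC of active against sedentary mice, no member passed the test and neither did any other gene (0.0% of 13513 genes by limma). All 78 members had a log2 difference below 0, with a median of -0.20 against 0.00 over all genes, and none had an unadjusted p under 0.05, where 9.27% of all genes did. The normalised read count of Rpl4, a core large-subunit protein, was 47350, 37060 and 42930 in active and 56460, 48290 and 47800 in sedentary HSC (log2 difference -0.26 ± 0.15, adjusted p = 0.486, limma). Rplp1 had 15030, 11250 and 13950 against 18430, 15370 and 15210 (-0.29 ± 0.17). These were the only members whose active libraries all lay below the sedentary ones, 2 of 78, with 9.29% of all genes doing so. Rpl7 had the smallest adjusted p, 0.485, for 23370, 18580 and 18940 against 30400, 23870 and 21940 (-0.32 ± 0.18).

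Keeping replicates 1 and 2 alone, with no deep library in either group, gave a median of -0.21 for active HSC. Leaving out active replicate 3 alone, with the deep sedentary library still in the fit, gave 0.01, and taking the second column named 6 gave -0.16. The range over the coding members ran from -0.39 (Rpl36a, with 5558, 4518 and 2905 against 7754, 5986 and 3541) to -0.05 (Rplp0, with 67750, 63660 and 45300 against 69520, 58780 and 52700). In both genes the spread within a group exceeded the difference between the groups, and the deep replicate 3 was the lowest library of each group. The fit had no term for replicate 3, so its low values enter the standard errors and the intervals. Rps19 differed by -0.14, Rps6 by -0.19, Rpsa by -0.14, Rpl5 by -0.24, Rpl11 by -0.30 and Rpl22 by -0.33. Only 42 of 78 members had a 95% interval within 1 of 0 on the log2 scale. Rps4l, at 64.26, 0.0 and 82.13 against 125.1, 78.74 and 85.51, has its 0 in the column numbered 6 described above. Among related lists, no gene of ribosome biogenesis (39 tested), RNA polymerase I (15) or the TOP translation factors (16) passed the test. Summed neutrophil markers were 7820, 13900 and 4600 CPM in active and 3220, 2560 and 3700 in sedentary HSC, with none of 12 past the test.

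Transplant HSC were compared with active and with sedentary HSC, and both comparisons share the transplant libraries. Against active HSC no member passed the test (0.0513% of 13633 genes did), none had an unadjusted p under 0.05 (17.8% did), and no member separated the groups, where 25.2% of all genes did. The median log2 difference was 0.17, with 77 of 78 above 0, against 0.00 over all genes, and it was 0.09 within replicates 1 and 2 and -0.07 without active replicate 3. Rpl34, a large-subunit protein, had the smallest p, with 11980, 11120 and 9972 in transplant and 10600, 8485 and 7515 in active HSC (0.32 ± 0.17, adjusted p = 0.359, limma). Rpl39, which lines the exit tunnel of the nascent chain, had 5448, 4947 and 4642 against 4939, 4056 and 3364 (0.30 ± 0.17). In each of these genes the deep replicate 3 was the lowest library of its group. Rpl17 had the largest value, 0.43, and Rpl3 differed by 0.00, Rpsa by 0.11, Rps6 by 0.13 and Rps19 by 0.24.

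Against sedentary HSC, no member passed either, although 11.6% of 13348 genes did. None of the 78 had an unadjusted p under 0.05, against 31.7% of all genes. The members' log2 differences had a median of 0.00, with 39 above and 39 below 0, and the highest was 0.20 (Rpl17). In reads scaled to a common size, Rpsa had 65960, 61840 and 59310 in transplant and 70230, 60320 and 57180 in sedentary HSC, a log2 difference of -0.00 ± 0.12. Rps6 had 38450, 35600 and 33500 against 42360, 35880 and 30330, a difference of -0.00 ± 0.16. The groups overlapped at every member, where 38.8% of all genes separated, and for 70 of 78 the 95% interval lay within 1 of 0. Rpl10 differed by 0.11, Rpl4 by -0.11, Rplp0 by 0.08, Rps19 by 0.10, Rpl5 by 0.01 and Rpl11 by -0.02. Leaving out sedentary replicate 3 gave a median of -0.205 and leaving out sedentary replicate 1 gave 0.19.

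Some genes that make ribosomes were lower in transplant than in sedentary HSC in the same fit, which called 11.6% of all genes. Of 39 ribosome biogenesis genes, 14 were lower and none higher, all 39 had a negative difference, and the median was -0.56. The methyltransferase gene Nop2 had 4605, 5364 and 5376 in transplant and 8510, 7742 and 7755 in sedentary HSC (-0.65 ± 0.12, adjusted p = 0.0278, limma). The helicase gene Ddx21 had 14350, 16740 and 18470 against 26540, 26630 and 26250 (-0.69 ± 0.13, adjusted p = 0.0292, limma). Their groups were well apart, unlike those of every ribosomal protein gene. RNA polymerase I genes, which transcribe ribosomal RNA, were lower in 4 of 15 (Polr1b, Taf1c, Polr1a and Ubtf), with Polr1b at 2830, 3304 and 3834 against 5439, 5353 and 5661 (-0.73 ± 0.14, adjusted p = 0.0327, limma). Of 22 mTOR pathway genes, Myc, a driver of ribosome gene transcription, was lower (-0.66 ± 0.13, adjusted p = 0.0348, limma), and Ddit4 and Pdcd4, both brakes on that pathway or on translation, were higher (1.11 ± 0.16 and 1.26 ± 0.19). These few calls stand beside 11.6% of all genes called, so they are not read as a result about the pathway. None of 16 TOP translation factors passed (median -0.19), nor did any of 77 mitochondrial ribosomal protein genes (median -0.22).

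These related calls are less firm than their direction. The RNA polymerase I count was 0 with the replicate number as a block, with scaling by ribosomal protein reads, and without transplant replicate 1 or 2 or sedentary replicate 1 or 2, and it was 5 by edgeR and 6 by DESeq2. The biogenesis count was 0 with the block, 0 with scaling by ribosomal protein reads, 0 without transplant replicate 1 or 2 and 0 without sedentary replicate 1 or 2, but 12 within replicates 1 and 2 alone, 33 by edgeR and 35 by DESeq2, and at least 38 of the 39 genes stayed negative in each of these. Neutrophil markers were all higher in transplant HSC (12 of 12, summed 9680, 10300 and 12400 against 3220, 2560 and 3700 CPM), and 5 of 7 lymphoid progenitor markers were lower (summed 114, 108 and 120 against 225, 271 and 314), while none of 12 proliferation markers passed. The part of these cell type markers in the ribosome genes' values was not tested. The lists were chosen with earlier results of these data known.

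**Figure D3:**
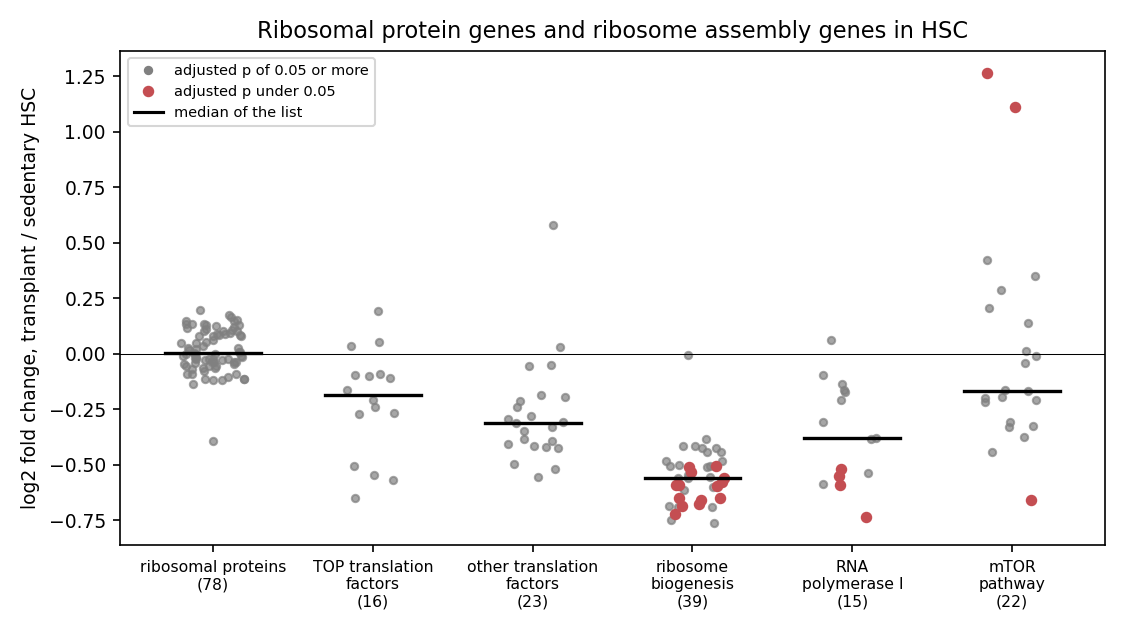
Log2 fold change, transplant over sedentary HSC (vertical axis), of each gene in 6 lists; red points have an adjusted p under 0.05 and the black bar is the list's median. The 78 ribosomal protein genes centre on 0 with no red point, whereas the 39 ribosome biogenesis genes lie below 0 with a median of -0.56 and 14 red points.

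Tumours and HSC of sedentary week 12 mice were compared in a joined table. The kit used to extract RNA differed between the tissues and cannot be told apart from the tissue. The test called 15 of 78 members (19.2%), against 73.0% of all 12426 genes, a share of calls below the background. Of the 15, 13 were lower in tumours (34.9% of all genes were) and 2 were higher (38.1% were). The members' median log2 difference was -0.30, against 0.05 over all genes. In 16 members every tumour lay below every HSC library and in 3 above, against 37.7% and 40.6% of all genes. The members called lower were Rpsa, Rps2, Rplp0, Rpl4, Rpl8, Rpl5, Rpl6, Rpl3, Rps6, Rpl13, Rpl12, Rpl7a and Rpl21.

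Rpsa, the small-subunit protein also known as the laminin receptor (GRCm38 chromosome 9, 120127689 to 120132369), had 19750, 28890 and 26010 scaled reads in tumours and 61210, 52940 and 50610 in HSC. The log2 difference was -1.16 ± 0.18 (adjusted p = 0.00146, limma). Rps2, which sits at the messenger RNA entry channel (chromosome 17, 24718116 to 24721929), had 23640, 34260 and 29740 against 75170, 62900 and 54870 (-1.14 ± 0.19, adjusted p = 0.00215, limma). These were the most negative differences of the 78, and the tissues did not overlap. Rplp0, the base of the P-stalk that recruits translation factors, had 27460, 36350 and 31750 against 66100, 56200 and 51080 (-0.86 ± 0.16), while its partners Rplp1 and Rplp2 differed by -0.05 and -0.09. Rpl4 had 17760, 29700 and 25220 against 53680, 46160 and 46330 (-1.04 ± 0.21), and Rpl8, near the peptidyl transferase centre, had 11100, 18480 and 14590 against 37390, 31500 and 24640 (-1.09 ± 0.24). Rpl5 differed by -1.004 and Rps6 by -0.88, but Rpl11 by only -0.27 with overlapping tissues (adjusted p = 0.512, limma).

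The 2 members called higher in tumours were short ones. Rpl38 (chromosome 11, 114668524 to 114672331, coding length 210 bases) had 4137, 3562 and 2443 in tumours against 2360, 1853 and 1020 in HSC, a log2 difference of 1.00 ± 0.36 (adjusted p = 0.0441, limma). Rps28 (chromosome 17, 33819027 to 33824562, 207 bases) had 2758, 4715 and 3712 against 2633, 2131 and 1206, a difference of 0.94 ± 0.34 (adjusted p = 0.0463, limma). Their tissues did not overlap, but with a narrow gap set by HSC replicate 1. The call on Rpl38 was lost with TMM scaling (adjusted p = 0.0591, limma) or a pseudocount of 0.1 (0.0505), and that on Rps28 was lost with the same settings (0.066 and 0.0527) and with the replicate block (0.0703). Leaving out tumour replicate 1 or 2 or HSC replicate 2 or 3 also ended the call on Rpl38 (adjusted p = 0.0738 to 0.119, limma), as did leaving out tumour replicate 2 or 3 or HSC replicate 2 or 3 for Rps28 (0.0754 to 0.133). Rps27l (2329, 2472 and 2316 against 2011, 1774 and 945.1, a difference of 0.66 ± 0.29, adjusted p = 0.0843, limma) and Rpl41 (6988, 10690 and 8170 against 7572, 5956 and 2662, 0.78 ± 0.41, adjusted p = 0.132) did not pass.

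How many members were called depended on the scale. With scaling by total reads 3 were higher and 6 lower, and with scaling by the members' own reads 5 were higher (Rpl37a, Rps27l, Rps28, Rpl38 and Rpl41) and none lower. Those scales put the median of all genes at 0.35 and 0.53. Relative to all genes the members' median was -0.35 on the main scale and -0.34 on both others. That likeness was fixed in advance, since a change of scale moves all genes of a library alike. The count was 9 without HSC replicate 2. Set beside the members, 38 of 39 ribosome biogenesis genes were lower in tumours, with a median of -2.05 (Ddx21 at 3052, 2797 and 3041 against 23130, 23380 and 23230), the other being Sbds at 0.10. Of 16 TOP translation factors, 14 were lower and Tpt1 was higher (0.74 ± 0.23, adjusted p = 0.0278, limma). All 12 proliferation markers were lower in tumours than in HSC, as was Myc (-2.63 ± 0.14), and their part in the members' values was not tested.

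**Figure D4:**
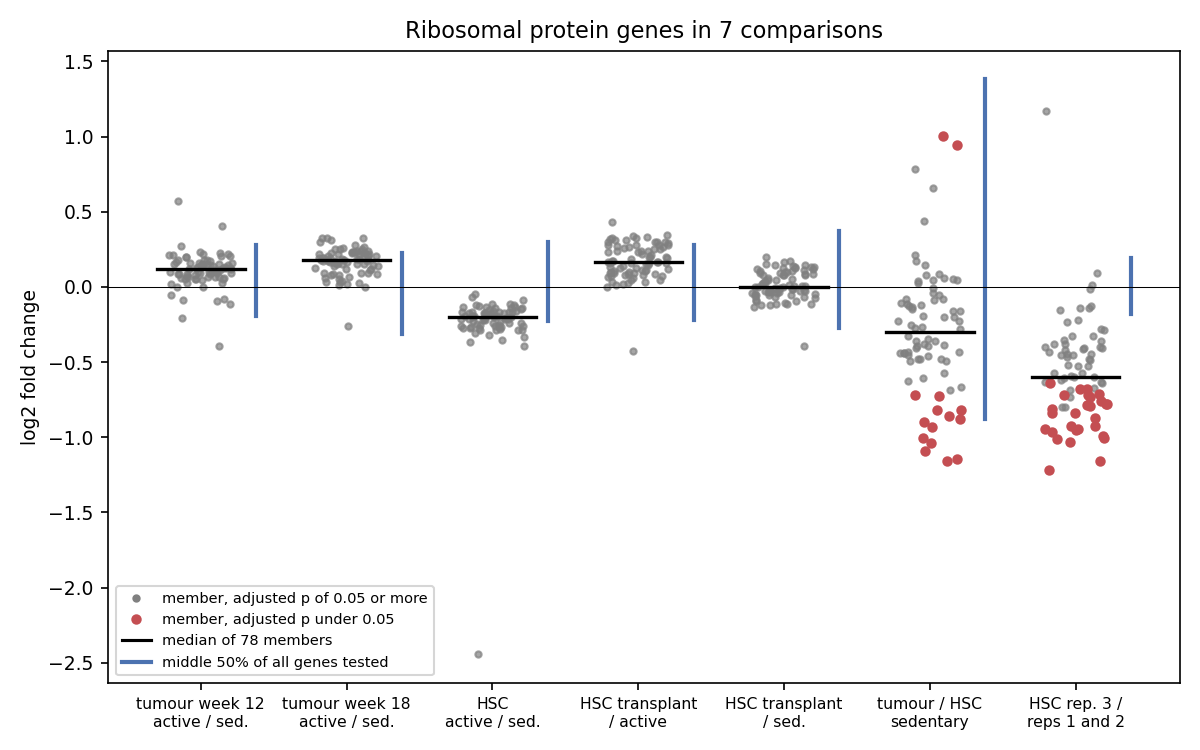
Log2 fold change (vertical axis) of each of the 78 members in 7 comparisons; red points have an adjusted p under 0.05, black bars are the members' medians and blue bars span the middle 50% of all genes tested. Red points appear only for tumour against HSC (15 members) and for HSC replicate 3 against replicates 1 and 2 (28 members, a contrast chosen for the low share in replicate 3 and shown as a description), and the members are packed more tightly than all genes in the tumour against HSC column.

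Replicate 3 of every HSC group was the deepest library and had the lowest share of reads from the members. It was set against replicates 1 and 2 because of that, over the 9 HSC libraries with the group as a term, so a lower level of the members was the reason for the choice and the calls below describe which members carried it, with no weight as a test. The fit called 28 of 78 members (35.9%) lower in replicate 3 and none higher, against 0.948% of 13399 genes lower and 0.627% higher (1.57% in all). The members' median was -0.60, against 0.02 over all genes, with 75 of 78 below 0. At an unadjusted p under 0.05 there were 68 members, against 16.3% of all genes. All 3 deep libraries lay below all 6 others for 60 members, against 4.48% of all genes. The share of reads was 3.71 ± 0.386% in replicate 3 (n = 3) and 5.16 ± 0.460% in the others (n = 6).

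Rpl13a, which is known to leave the ribosome and silence inflammatory messages in myeloid cells (chromosome 7, 45125558 to 45128761), had 39060, 32300 and 39320 scaled reads in the deep sedentary, active and transplant libraries. The other 6 libraries ran from 63440 to 79800, with a mean of 70060 ± 6787, and the log2 difference was -0.93 ± 0.089. Rpl31 differed by -1.01 ± 0.10, Rps28 by -1.005 ± 0.10 and Rpl41 by -1.22 ± 0.16. Rps19, the gene most often mutated in Diamond-Blackfan anaemia, had 4687, 3832 and 5214 in the deep libraries against 7781 to 9317 in the others (-0.94 ± 0.10). These members lay far outside the range of the other libraries. Others did not: Rpl4 had 54640, 49180 and 55850 against 41960 to 64160 (0.01 ± 0.11), and Rplp1 differed by -0.02, Rps4x by 0.09 and Rpsa by -0.14, with the deep libraries inside or near the range of the rest.

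Within each group, replicate 3 was the lowest of the 3 libraries for 76 of 78 members in sedentary, 72 in active and 73 in transplant HSC, where 35.2%, 34.9% and 38.4% of all genes were lowest there. The median ratio of replicate 3 to the mean of the other 2 was 0.627, 0.630 and 0.741. The number of members called depended on each library, being 0 without active replicate 3, 1 without sedentary replicate 3 and between 8 and 14 without any 1 of the others, while the median stayed between -0.675 and -0.542. It was 45 by edgeR, 66 by DESeq2 and 43 with the other column numbered 6. Scaling by the members' own reads put the median of all genes at 0.48 and called 7 members higher and 21 lower. Relative to all genes the members' median was -0.62, which a change of scale cannot alter. In the same fit 0 of 39 ribosome biogenesis genes, 1 of 16 TOP translation factors (Tpt1) and 5 of 77 mitochondrial ribosomal protein genes were called. Depth, naming and replicate number go together here and cannot be told apart.

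Coding length ran along with the tumour against HSC differences and, in the opposite direction, with those of HSC replicate 3. Over the 77 coding members, Spearman's rho between coding length and the log2 difference was -0.63 for tumour against HSC and 0.55 for replicate 3 against the others, given as a description because genes of the same libraries are not independent. Between tumours and HSC, the 26 members under 400 bases had a median of -0.10 with 2 calls, the 38 in between -0.30 with 3 calls, and the 13 members of at least 700 bases -0.88 with 10 calls. Between the HSC replicates, the short members had a median of -0.74 with 15 calls, those in between -0.60 with 12 calls, and the long ones -0.28 with 1 call. The called members at least 700 bases long were all lower in tumours, and 15 of the 28 called in HSC replicate 3 were under 400 bases. For active against sedentary the rho was 0.03 in week 12 tumours, 0.23 in week 18 tumours and 0.13 in HSC, for transplant against active HSC -0.54 and for transplant against sedentary HSC -0.32.

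**Figure D5:**
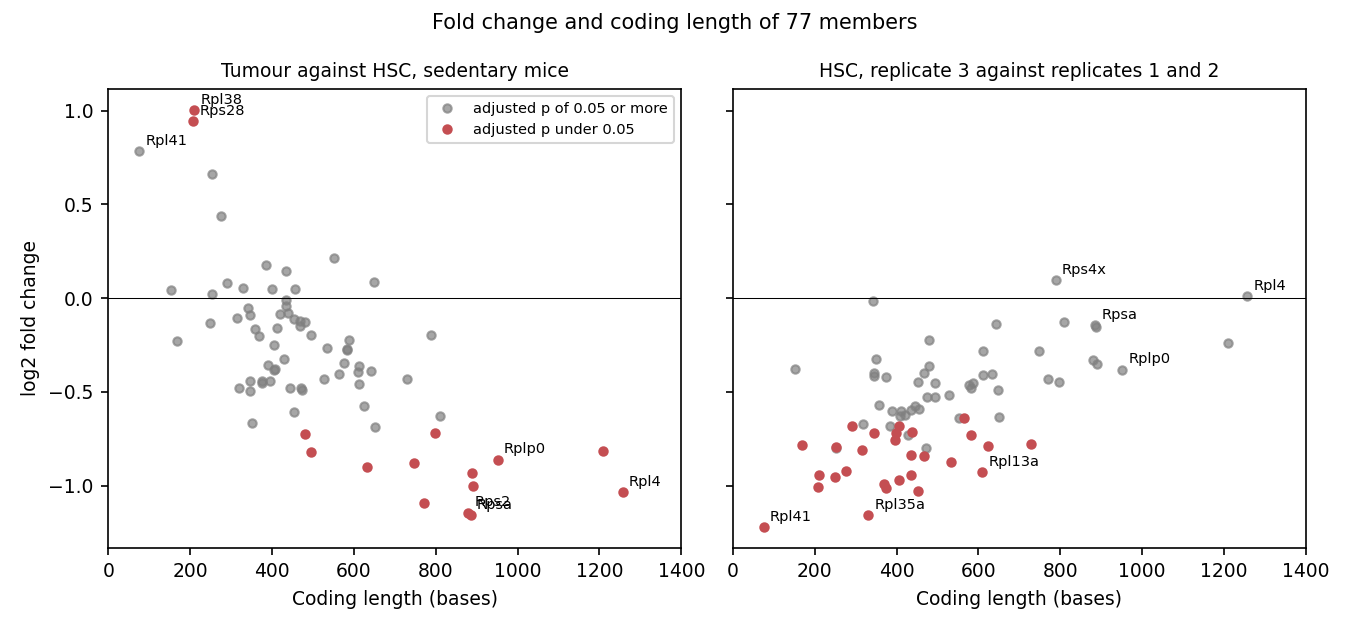
Log2 fold change (vertical axis) against coding length in bases (horizontal axis) for 77 members, for tumour against HSC (left) and HSC replicate 3 against replicates 1 and 2 (right); red points have an adjusted p under 0.05, on the right as a description only. On the left the values fall with length (rho -0.63), with Rpl38 and Rps28 at the top and Rpsa and Rps2 at the bottom; on the right they climb with length (rho 0.55), with Rpl41 lowest and Rpl4 and Rps4x near 0.

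Calls fell in both subunits and in members with and without a pyrimidine run. Between tumours and HSC, the test called 1 member higher and 3 lower of 32 in the small subunit and 1 higher and 10 lower of 46 in the large one. Between the HSC replicates it called 15 of the 32 and 13 of the 46 lower. Of the 22 members with a pyrimidine run at the start, 3 were called between tumours and HSC (1 higher, 2 lower), against 9 of the 35 without one (1 higher, 8 lower), and 9 and 12 were called lower in HSC replicate 3. The medians with and without the run were -0.25 and -0.35 for tumour against HSC and -0.62 and -0.62 for the HSC replicates. Rpl38, whose start printed above holds a run, and Rps28, whose start holds none, were both called higher in tumours than in HSC. Rpl13a, which holds one, and Rps28 were both among the members lowest in HSC replicate 3. A part of the run in these values was not tested, and the run was sought only at the annotated start.

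In the authors' deposited tables, too, none of the 78 members had an adjusted p under 0.05 in any of the 4 comparisons. In the authors' deposited table, the smallest adjusted p of a member was 0.844 at week 12 and 0.727 at week 18 for active against sedentary tumours, with Rpl38 and Rpl27a having the smallest p. In the authors' deposited tables for HSC it was 0.368 for active against sedentary, led by Rpl7, and 0.253 for transplant against active, led by Rpl34.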

How the data were processed

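Messenger RNA libraries (TruSeq Stranded mRNA, per the labels) of 12 mammary tumours and 9 HSC samples were analysed from 4 deposited tables. Per the labels' protocols, TRIzol was used for the tumours and the RNAqueous-Micro kit for the sorted cells. The build was mm10, per the submitters' processing notes. The aligner, counter and annotation are not given in the sources used here. The labels call the replicates biological, and nothing more on their source was used.

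The deposited expression signal is a read count per gene divided by 1 factor per library, by the authors, as its values show: 100.0% of values were whole multiples of 1 step per library (tolerance 0.02 of a read), so whole reads were recovered. Also deposited by the authors, per the file headers, are a p-value and an adjusted p-value, a log2 fold change, a linear fold ratio, a test statistic taken here as a score, and a −log10 adjusted p. The tables hold 0 columns that could not be mapped to a sample.

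Within a table, limma 3.58.1 (R 4.3.3) was fitted to log2(value + 1), keeping genes whose group mean reached 1 in one or both groups, with Benjamini-Hochberg adjustment over all of them and a threshold of 0.05. For comparisons across tables the recovered reads were joined by symbol and scaled by median of ratios. Fold changes are on the log2(value + 1) scale. The recovered reads were also tested with edgeR 4.0.16 and DESeq2 1.42.0. Other alternatives were pseudocounts of 0.1 and 10, filters, scalings, the replicate block and leaving out each library. The comparison of HSC replicate 3, chosen for its low share and used as a description, the scaling by members' reads and the denominator of genes in all tables were added after the data were seen. CPM values and shares use all recovered reads of a library, and no interval of counting error is given for them. Coordinates and coding lengths are from GENCODE M21 (GRCm38), and promoters from RefSeq (GRCm38.p6).

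The members and lists were chosen with earlier results of these data known. The text names, per comparison, up to 5 members past the threshold with the smallest p in each direction (the 2 smallest p where none passed), the 3 largest and 3 smallest fold changes among members with a mean of at least 50, and a list of members with known roles. The complete list of members called between tumours and HSC was named in addition, after their values were seen. Some members that the rule names are not reported here. Same-numbered replicates deviated together in every pair for week 18 tumours (correlations 0.164, 0.159 and 0.139 over genes) and for transplant against active HSC (0.105, 0.116 and 0.318). Only there are the numbers taken as pairs, on these correlations alone, since the labels state no pairing. In transplant against active HSC, replicate 3 is the deep library of both groups, and its part in the correlation was not tested. The main fits had no term for the pairs, and the replicate block was run only as an alternative. On simulated data with 200 changed genes, a log2 change of 1 was recovered for 0% in the week 12 tumour comparison (19087 genes), in transplant against sedentary HSC (13322) and in tumour against HSC (12422). A log2 change of 2 was recovered for 0% (19105 genes), 98% (13331) and 98% (12424), respectively.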

Additional observations from a re-analysis of the deposited data

How the results depend on the processing

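The count of members called was 0 under every alternative run for activity in tumours at both weeks, for the change of that effect between weeks, for active against sedentary HSC and for both transplant comparisons. Leaving out 1 library at a time, the members' median ran from -0.0768 to 0.296 at week 12, 0.0943 to 0.322 at week 18, -0.116 to 0.25 for the change between weeks, -0.417 to 0.0148 for active HSC, -0.0733 to 0.338 for transplant against active and -0.205 to 0.188 for transplant against sedentary HSC, so its sign was not fixed in any of these but week 18. Scaling by ribosomal protein reads gave a week 18 median of 0.005294. For tumour against HSC, 9 members were called with scaling by total reads, 23 by edgeR and 5 with scaling by ribosomal protein reads, where the median was 0.1946, and leaving out 1 library gave 9 to 19 calls. The replicate block gave 12 calls there (1 higher, 11 lower), although the replicate numbers were not taken as pairs there. In week 18 tumours and transplant against active HSC, where they were, the block left the count at 0. For HSC replicate 3, a description, edgeR called 45 members, DESeq2 66 and the other column numbered 6 gave 43, the median was -0.1339 with scaling by ribosomal protein reads, and leaving out 1 library gave 0 to 14 calls. Over 64 results on named members, of which 15 were calls, 1133 alternatives kept the side of the threshold in 1088, lost a call in 42, gained one in 3 and reversed none. Only a call can be lost, so all 42 losses fell on those 15, and the uncalled results could only stay or gain a call. Results of the HSC replicate 3 description are counted among the 64. With 200 changed genes simulated, a log2 change of 1 was not recovered by limma with 3 libraries a group, nor was 1 of size 2 in week 12 tumours. Differences of that size may therefore go uncalled where few genes change. The simulation does not describe tumour against HSC, where 73.0% of all genes were called, nor transplant against sedentary HSC, where 11.6% were. Differences smaller than 1 passed in both. Rpl21 did so at -0.73 (adjusted p = 0.0275, limma) between tumours and HSC, and Nop2, Ddx21 and Myc did so between transplant and sedentary HSC, as given above.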
